A study of Mus with 4 samples.

Results

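The genes described here make the machinery by which a new protein enters the endoplasmic reticulum (ER), loses its signal peptide and receives its N-glycan. They are 35 genes chosen by function, of 16318 named genes that could be tested. They cover the signal recognition particle (SRP) and its receptor, the Sec61 channel and its partners, the translocon-associated protein (TRAP) complex, signal peptidase and the oligosaccharyltransferase (OST). The list was chosen with earlier results of these data known. Its counts, shares and medians are therefore a description of the list and not a test of it. Every probe annotated to them was taken, which gave 67 probes, and 61 of these were bright enough to be tested.

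The samples came from an immortalized murine podocyte line that had been differentiated for 10 to 14 days at the nonpermissive temperature without interferon-γ. Podocytes are the epithelial cells that cover the glomerular capillaries with interlocking foot processes. All cells met a lentivirus, with polybrene and serum, at a multiplicity of infection of 200 to 500 for 24 h, and total RNA was taken at 48 h. In 2 samples, the OASIS group, the virus carried the N-terminal, active form of OASIS, the transcription factor encoded by Creb3l1, and in 2 samples, the Venus group, it carried the fluorescent protein Venus as the control. The line is a single immortalized line, the virus was made with the vector pCSII-EF, and nothing in the sources says that the samples of a group were separate cultures, so that p-values measure only the spread between these samples, which may be technical.

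An mRNA with a signal sequence is brought to the ER by SRP, which binds the sequence as it leaves the ribosome and docks with its receptor on the ER membrane. The chain then passes through the Sec61 channel, helped for some proteins by TRAP, TRAM and the Sec62-Sec63 pair, while signal peptidase cuts off the signal peptide and OST transfers a preassembled glycan to asparagine residues. Mammalian cells hold alternative forms of OST. The form with STT3A sits at the channel and acts as the chain enters, whereas the form with STT3B can act on sites that were passed over and works with an oxidoreductase, MAGT1 or TUSC3.

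RNA was read on 1-colour Agilent arrays, 1 array a sample, and values are log2 intensities measured against the 75th percentile of the array, called normalized log2 intensity here. The 4 arrays shared 1 slide and 1 scan. Between 33938 and 34418 of the 59305 spots that are not controls were well above background and 0 were saturated. The probe for Creb3l1 read 0.71 and 0.72 with Venus and 0.61 and 0.49 with OASIS (log2 fold change -0.17, limma adjusted p = 0.298). It was not tested whether this probe can read the insert, so that it does not check the labels. Of 13 podocyte marker genes, 9 were well above background on all arrays and their summed intensity, in units of the 75th percentile, was 53.1 and 55.7 with Venus and 53.7 and 56.7 with OASIS. Most of it came from Actn4, at 33.9 and 34.3 with Venus and 29.2 and 29.6 with OASIS (log2 fold change -0.22, limma adjusted p = 0.172), while Cd2ap stood at 4.96 and 5.36 with Venus and 10.4 and 11.5 with OASIS. Ptpro and Tcf21 were above background on no array and neither Nphs1 probe was bright enough to test, whereas Synpo (log2 fold change -0.14, limma adjusted p = 0.532), Podxl (0.28, limma adjusted p = 0.475) and Wt1 were measured. Wt1 rose on its brightest probe (log2 fold change 4.62, limma adjusted p = 0.00215), while its other tested probe gave -0.16, and Cd2ap rose on its brightest probe (1.09, limma adjusted p = 0.00832), while its other tested probes gave 0.31 and -0.37. Magi2 was lower by the adjusted p alone (-0.55, limma adjusted p = 0.0308).

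The comparison of the groups asks which genes differ when active OASIS is present, and protein entry genes were higher with OASIS more often than lower. A gene was called when its fold was over 2 or under 0.5 and its limma p, adjusted over all probes by the Benjamini-Hochberg method, was under 0.1. The methods' t-test, given beside it, is Student's t-test by probe with the same adjustment. The paper lists that test in its general statistics and names no test for the arrays. By its brightest probe, 6 of the 35 genes rose, namely Ssr1, Tram1, Sec61b, Srp19, Ostc and Sec61a1, and 1 fell, Magt1. These are 17.1% of the genes for the rises, where 6.21% of all tested genes rose and 1.85% fell. By the adjusted p alone, with no limit on the fold, 23 of the 35 genes (65.7%) were higher and 2 (5.71%), Magt1 and Stt3b, were lower, beside 18.6% and 18.1% of all tested genes, and the remaining 10 did not pass. Both OASIS arrays lay above both Venus arrays for 26 genes (74.3%), against 31.5% of all tested genes, and below them for 5, against 39.4%, and the groups overlapped for 4. The median log2 fold change of the 35 genes was 0.50, a fold of 1.41, within a range from -1.15 to 1.91, and that of all tested genes was -0.06. Without OASIS replicate 1, 4 genes rose, since Sec61a1 (0.96) and Ostc (0.97) then lay under the fold of 2, and without OASIS replicate 2, 8 rose, with Rpn1 and Srprb added. The count by the adjusted p alone fell to 10 without Venus replicate 1 and to 12 without Venus replicate 2, when the share of all genes so called fell from 18.6% to 8.00% and 8.37%, that of lower genes was 1 without either of these or OASIS replicate 1, and the methods' t-test called 1 gene as a rise, Ssr1, and none as a fall. Fewer cells of a type and less RNA per cell cannot be told apart in these bulk samples.

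The genes are scattered over the genome in the annotation of the array. Of those called, Ssr1 lies on chromosome 13, Tram1 on chromosome 1, Srp19 on chromosome 18, Sec61b on chromosome 4, Ostc on chromosome 3, Sec61a1 on chromosome 6 and Magt1 on chromosome X. A few share a band, such as Sec61a1 and Rpn1 in qD1 of chromosome 6, Srpr and Stt3a in qA4 of chromosome 9, and Ssr2 and Krtcap2 in qF1 of chromosome 3.

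**Figure D1:**
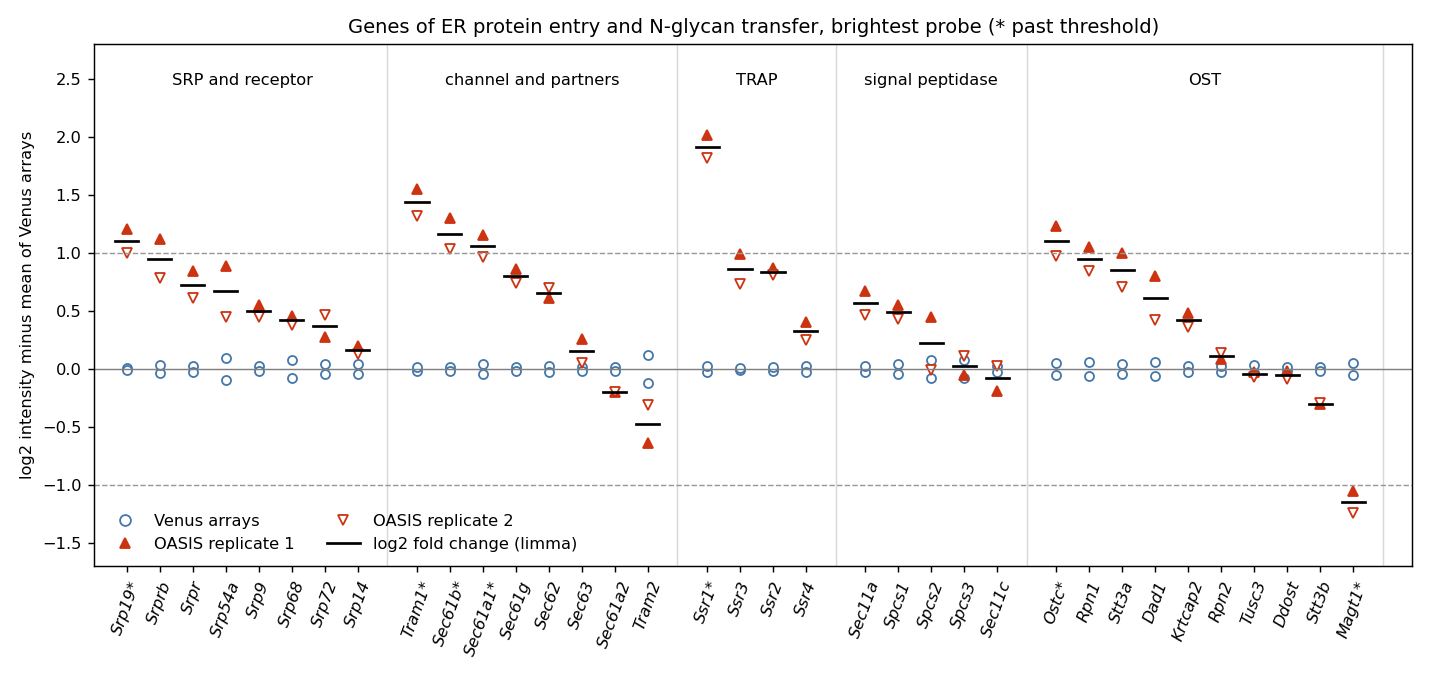
Log2 intensity of each of the 35 genes on each array, minus the mean of the Venus arrays, by the brightest probe and grouped by role; circles are Venus arrays, triangles OASIS arrays, black lines the limma log2 fold change and dashed lines a fold of 2. The 6 genes with an asterisk above 0 rose and Magt1 fell, and OASIS replicate 1 lies above OASIS replicate 2 in all 6.

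Of the 8 genes of SRP and its receptor, 7 were higher by the adjusted p alone, beside 18.6% of all tested genes, 1 of them past the fold of 2. The median log2 fold change was 0.58, but 0.46 without OASIS replicate 1 and 0.70 without OASIS replicate 2. Both OASIS arrays exceeded both Venus arrays in all 8, beside 31.5% of all tested genes. Without Venus replicate 1, 1 of the 8 passed the adjusted p, and without Venus replicate 2, 2 did. With no filter on dim probes 4 passed, when 8.40% of all genes did as higher and Srp54a (limma adjusted p = 0.181), Srp68 (0.116) and Srp72 (0.167) were lost, and by the methods' t-test 0 passed, when 4.17% of all genes did.

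Srp19 encodes the subunit that helps to fold the SRP RNA so that the signal-binding subunit can join it. Its normalized log2 intensity was 2.85 and 2.82 with Venus and 4.04 and 3.84 with OASIS. It rose by 1.10 on the log2 scale, a fold of 2.15 (standard error of the log2 fold change, SE, 0.12, limma adjusted p = 0.00871), and the groups lie far apart relative to the gap within either of them.

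Srprb encodes the membrane-anchored β subunit of the SRP receptor, and Srpr the α subunit that SRP docks with. Srprb read 0.66 and 0.74 with Venus and 1.82 and 1.48 with OASIS, a log2 fold change of 0.95 (SE 0.15, limma adjusted p = 0.0183). Srpr read 2.97 and 2.92 with Venus and 3.78 and 3.55 with OASIS, a log2 fold change of 0.73 (SE 0.12, limma adjusted p = 0.0219). Both lay under the fold of 2, and the other tested probe of each gave 0.78 for Srprb and 0.57 for Srpr, the latter not past the test (limma adjusted p = 0.172).

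Srp54a encodes the GTPase that binds the signal sequence, and its probes disagree in size. The brightest read -0.88 and -1.07 with Venus and -0.08 and -0.53 with OASIS, a log2 fold change of 0.67 (SE 0.19, limma adjusted p = 0.065). The other probes, A_55_P2467801 and A_55_P2723324, gave 2.32 and 2.35, with limma adjusted p = 0.00325 and 0.00275. All are assigned to band qC1 of chromosome 12, where the array also carries Srp54b and Srp54c, near-identical copies with log2 fold changes of 0.67 and 0.75 (limma adjusted p = 0.0489 and 0.0181). Their levels differ widely. Srp54b was dim, at -4.92 and -4.52 with Venus and -4.08 and -4.03 with OASIS. Srp54c, at 4.07 and 3.91 with Venus and 4.80 and 4.69 with OASIS, was far brighter than any Srp54a probe. The gene behind each signal is uncertain.

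Srp9 and Srp14 encode the pair that slows translation while the ribosome is brought to the membrane, and Srp68 and Srp72 encode a pair that binds the same domain of the particle as the signal-binding subunit. Srp9 gave 0.50 on its brightest probe and 0.52 on the other, both past the adjusted p (limma adjusted p = 0.034 and 0.0365). Srp14 gave 0.17 and did not pass (limma adjusted p = 0.294). Srp68 gave 0.42 (limma adjusted p = 0.0594, but 0.116 with no filter on dim probes), and it did not pass by the methods' t-test (adjusted p = 0.156). Srp72 gave 0.37 on its brightest probe (limma adjusted p = 0.0888, but 0.110 under quantile normalization and 0.134 under scaling to the median) and -0.03 on both other tested probes. The changes in these subunits were thus under 1.5-fold where they passed.

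The channel itself and the partners next to it held the most rises. Of 8 genes, Tram1, Sec61b and Sec61a1 rose past the fold of 2, beside 6.21% of all tested genes. A further count, by the adjusted p alone, gave 5 higher, beside 18.6% of all tested genes, and the median was 0.73. The methods' t-test gave 2 higher, when 4.17% of all genes were, and 1 lower, Sec61a2. By the brightest probe and limma, Sec63, Sec61a2 and Tram2 did not pass, and the values of Sec61a2 and Tram2 were below 0. With the mean of a gene's probes all 3 passed the adjusted p, Sec63 as higher (0.85, limma adjusted p = 0.0102), and Sec61a2 (-0.42, limma adjusted p = 0.0684) and Tram2 (limma adjusted p = 0.0969) as lower.

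Sec61a1, Sec61b and Sec61g encode the α1, β and γ subunits of the channel, of which α forms the pore. Sec61a1 read 4.10 and 4.18 with Venus and 5.30 and 5.11 with OASIS, and it rose by 1.06, a fold of 2.08 (SE 0.12, limma adjusted p = 0.00953). Sec61b read 5.03 and 5.0 with Venus and 6.32 and 6.04 with OASIS, and it rose by 1.17, a fold of 2.24 (SE 0.13, limma adjusted p = 0.00969). Sec61g read 5.73 and 5.69 with Venus and 6.57 and 6.45 with OASIS, a log2 fold change of 0.80 (SE 0.11, limma adjusted p = 0.0129).

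The other probes of these 3 genes lay close to the brightest. Both tested Sec61b probes passed the threshold, with 1.22 on the dimmer one, while the dimmer Sec61a1 probes gave 0.92 and 0.86 and the dimmer Sec61g probe gave 0.69, under the fold of 2. The call of Sec61a1 as a rise therefore holds for 1 of its 3 tested probes.

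Sec61a2 encodes an alternative pore subunit. Its brightest probe read 1.49 and 1.46 with Venus and 1.28 on both OASIS arrays, a log2 fold change of -0.20 that did not pass (SE 0.097, limma adjusted p = 0.206). The same probe passed as lower by the methods' t-test (adjusted p = 0.0967). The other tested probes gave -0.27, -0.47 and -0.75, and only the last passed the adjusted p (limma adjusted p = 0.0168). No tested probe of Sec61a2 lay above 0.

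Tram1 encodes the translocating chain-associating membrane protein, which contacts the chain as it enters the channel, and Tram2 its relative. Tram1 read 0.30 and 0.34 with Venus and 1.87 and 1.64 with OASIS, and it rose by 1.43, a fold of 2.70 (SE 0.12, limma adjusted p = 0.00645). Tram2 read 0.92 and 1.15 with Venus and 0.39 and 0.73 with OASIS. Its log2 fold change was -0.47 (SE 0.17, limma adjusted p = 0.104), with both OASIS arrays below both Venus arrays. It was lower by the adjusted p alone under normexp correction (limma adjusted p = 0.0364), an intensity trend (0.038), the replicate block (0.0392), the filter on all 4 arrays (0.0865), quantile normalization (0.0947) and without OASIS replicate 2 (0.0779).

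Sec62 and Sec63 encode the pair that assists small or weakly targeted proteins, Sec63 by recruiting the chaperone BiP to the inside of the channel. Sec62 read 3.76 and 3.71 with Venus and 4.35 and 4.43 with OASIS, a log2 fold change of 0.65 (limma adjusted p = 0.0185). For Sec63 the outcome depends on the probe. The brightest read 1.89 and 1.85 with Venus and 2.13 and 1.92 with OASIS and did not pass (0.16, limma adjusted p = 0.381), whereas the dimmer, A_52_P578268, read -0.55 and -0.41 with Venus and 0.87 and 1.26 with OASIS and rose by 1.55 (SE 0.17, limma adjusted p = 0.0088).

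All 4 TRAP genes were higher by the adjusted p alone on their brightest probes, beside 18.6% of all tested genes. Their median was 0.85. By the methods' t-test 2 of the 4 passed, when 4.17% of all genes did as higher, and Ssr3 and Ssr4 did not pass. When probes were averaged by gene, the TRAP median was 0.62 and Ssr3 (0.37, limma adjusted p = 0.127) did not pass. TRAP sits beside the channel and helps signal sequences that open it poorly. Ssr1, for its α subunit, read 3.20 and 3.24 with Venus and 5.23 and 5.03 with OASIS, and it rose by 1.91, a fold of 3.77 and the largest rise among the 35 genes by the brightest probe (SE 0.12, limma adjusted p = 0.0036). The dimmer Ssr1 probe gave 0.93 (SE 0.24, limma adjusted p = 0.0534).

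Ssr2 and Ssr3 encode the β and γ subunits and had similar values on their brightest probes. Ssr2 read 5.11 and 5.15 with Venus and 6.0 and 5.94 with OASIS, a log2 fold change of 0.84 (limma adjusted p = 0.0106), and its other probe gave 0.92. Ssr3 read 4.40 and 4.42 with Venus and 5.40 and 5.15 with OASIS, a log2 fold change of 0.86 (limma adjusted p = 0.0164). The other Ssr3 probe gave -0.12, with overlapping groups (limma adjusted p = 0.642). Ssr4, for the δ subunit, had the smallest value of the complex at 0.32 (limma adjusted p = 0.0983, but 0.106 under scaling to the median, 0.101 with outlier spots kept, 0.158 with no filter on dim probes, and 0.212 to 0.385 without Venus replicate 1, Venus replicate 2 or OASIS replicate 1), with 0.28 on its other probe (limma adjusted p = 0.105).

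**Figure D2:**
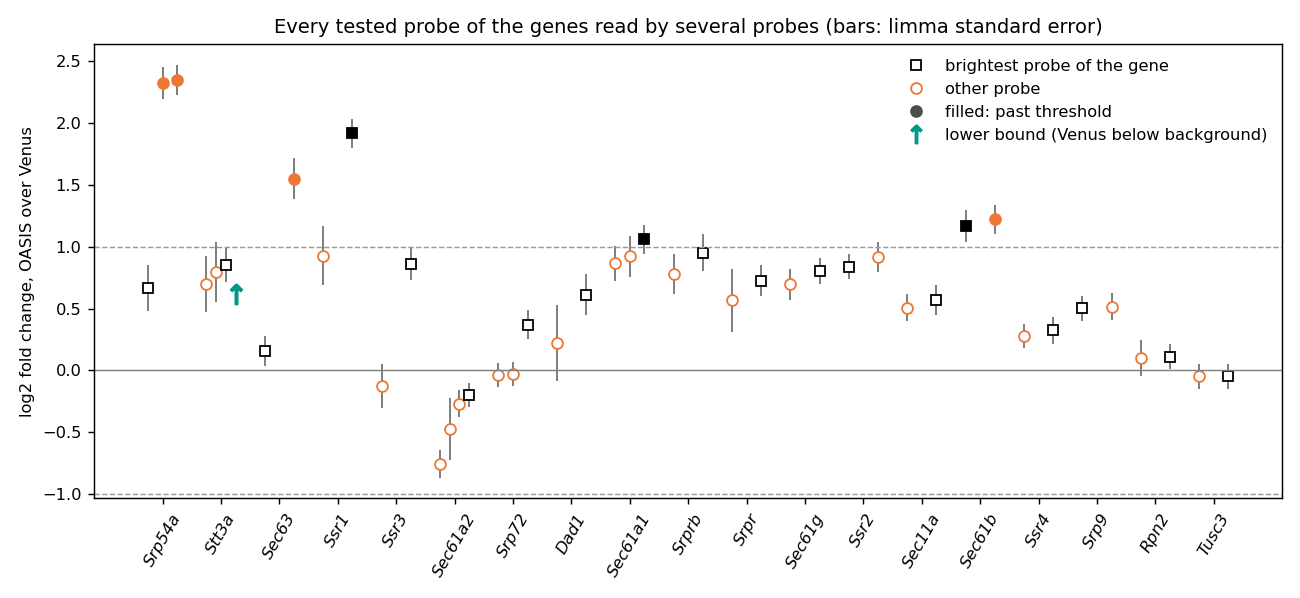
Log2 fold change, OASIS over Venus, of every tested probe of the 19 genes with more than 1, with the limma SE; squares are the brightest probe of a gene, circles the others, filled symbols are past the threshold, the arrow is the lower bound of a Stt3a probe below background with Venus, and dashed lines mark a fold of 2. The probes of Srp54a and Sec63 spread by 1.68 and 1.39, and the 3 Stt3a probes above background in both groups by 0.15.

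Of the 5 signal peptidase genes, 2 were higher by the adjusted p alone, beside 18.6% of all tested genes. None passed the fold of 2. The median was 0.22, but 0.11 without OASIS replicate 1 and 0.45 without OASIS replicate 2. The methods' t-test passed 0 of the 5, when 4.17% of all genes passed as higher. Without Venus replicate 1 or Venus replicate 2, 0 of the 5 passed. Sec11a, for a catalytic subunit, read 3.69 and 3.75 with Venus and 4.39 and 4.18 with OASIS, a log2 fold change of 0.57 (SE 0.12, limma adjusted p = 0.0355), and its other probe gave 0.51. Spcs1, for a small accessory subunit, gave 0.49 (limma adjusted p = 0.0378).

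The groups overlapped for the other 3 subunits of signal peptidase. Spcs2 and Spcs3, for further noncatalytic subunits, gave 0.22 and 0.03 (limma adjusted p = 0.426 and 0.878). Sec11c, for the alternative catalytic subunit, read 0.05 and -0.01 with Venus and -0.17 and 0.05 with OASIS, a log2 fold change of -0.08 (limma adjusted p = 0.668). The sign of each of these 3 values turned when particular arrays were left out, and that of Spcs3 also under quantile normalization.

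OST held both a rise, Ostc, and the only fall, Magt1. Of its 10 genes, 5 were higher and 2 lower by the adjusted p alone, beside 18.6% and 18.1% of all tested genes. The median was 0.27. The methods' t-test gave 0 higher and 1 lower, when 4.17% of all genes were higher. Split by the form of the enzyme to which a subunit belongs, a split made after the values had been seen and so given as a description, the 3 genes particular to the STT3A form (Stt3a, Ostc and Krtcap2) had a median of 0.85 and all 3 were higher by the adjusted p alone. The 3 genes of the STT3B form (Stt3b, Magt1 and Tusc3) had a median of -0.30, with none higher and 2 lower. The shares of all tested genes beside these counts are again 18.6% higher and 18.1% lower. The methods' t-test gave 0 higher genes for the STT3A form and 1 lower gene for the STT3B form. The 4 shared genes (Rpn1, Rpn2, Dad1 and Ddost) had a median of 0.36, with 2 higher. Without Venus replicate 1, 1 of the 3 genes of the STT3A form passed, as Stt3a (limma adjusted p = 0.116) and Krtcap2 (0.235) did not, and without any 1 of the 4 arrays the lower genes of the STT3B form were 1 instead of 2.

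Stt3a and Stt3b encode the alternative catalytic subunits. The brightest Stt3a probe read -0.10 and -0.01 with Venus and 0.94 and 0.65 with OASIS, a log2 fold change of 0.85 (SE 0.14, limma adjusted p = 0.0202). Further Stt3a probes gave 0.70 and 0.80 (limma adjusted p = 0.0877 and 0.0771). The dimmest Stt3a probe, A_55_P2717837, was well above background on neither of the Venus arrays and entered the test only through the OASIS arrays, so that its level is given as a bound of at least 1.53-fold higher with OASIS and supports nothing here. The 3 other Stt3a probes average 0.78, under the fold of 2.

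The single Stt3b probe read 2.28 and 2.24 with Venus and 1.96 on both OASIS arrays, a log2 fold change of -0.30 (SE 0.098, limma adjusted p = 0.09). It did not pass when any 1 of the 4 arrays was left out (limma adjusted p from 0.148 to 0.410) or with no filter on dim probes (0.110). The 3 Stt3a probes above background in both groups gave values above 0 and the Stt3b probe a value below it.

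Ostc and Krtcap2 encode the subunits that tie the STT3A form to the channel. Ostc read 2.86 and 2.77 with Venus and 4.04 and 3.78 with OASIS, and it rose by 1.10, a fold of 2.14 (SE 0.13, limma adjusted p = 0.011). Krtcap2 read 5.59 and 5.53 with Venus and 6.05 and 5.92 with OASIS, a log2 fold change of 0.42 (limma adjusted p = 0.0524). Krtcap2 did not pass by the methods' t-test (adjusted p = 0.132). In both genes the OASIS arrays lay above the Venus arrays without overlap, as in 31.5% of all tested genes.

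Magt1 encodes an oxidoreductase of the STT3B form and Tusc3 its alternative. Magt1 read 2.63 and 2.52 with Venus and 1.53 and 1.33 with OASIS, and it fell by 1.15 on the log2 scale, which makes Venus 2.21 times OASIS (SE 0.12, limma adjusted p = 0.00852). Tusc3 read 3.41 and 3.47 with Venus and 3.42 and 3.37 with OASIS, a log2 fold change of -0.05 (limma adjusted p = 0.762), the same value as on its other tested probe. Magt1 was read by 1 probe, so that no other probe bears on its fall.

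Among the shared subunits, Rpn1, for ribophorin I, read 4.35 and 4.47 with Venus and 5.46 and 5.25 with OASIS, a log2 fold change of 0.95 (SE 0.12, limma adjusted p = 0.0128). Dad1, for a small structural subunit, read 4.40 and 4.27 with Venus and 5.14 and 4.76 with OASIS, a log2 fold change of 0.61 (limma adjusted p = 0.0587), with 0.22 on a dimmer probe that did not pass. Dad1 did not pass with the mean of its probes (0.42, limma adjusted p = 0.239), with no filter on dim probes (0.160), or without Venus replicate 1 (0.179), Venus replicate 2 (0.236) or OASIS replicate 1 (0.110). Rpn2, for ribophorin II, gave 0.11 (limma adjusted p = 0.454) and Ddost, for the 48-kDa subunit, gave -0.05 (limma adjusted p = 0.723). Subunits of the same complex thus differed in their values, from -0.05 to 0.95.

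Of the 61 tested probes, 60 were above background in both groups, the exception being the dimmest Stt3a probe. Among these 60, 10 rose (16.7%) and 1 fell, beside 5.89% and 2.47% of all 31598 probes tested. Unlike the 60, those 31598 also include probes above background in only 1 group. The methods' t-test called 3 of the 61 as rises and none as a fall, when it called 334 genes higher and 66 lower of the 16318 tested. The share of all probes that the t-test called is not given here. For 8 genes at least 1 of the 60 probes rose, and for 4 genes every tested probe did. Of the 6 genes that rose by the brightest probe, Tram1, Srp19 and Ostc have 1 tested probe each, both probes of Sec61b rose, and the dimmer probes of Ssr1 and Sec61a1 lay under the fold of 2. The 6 probes that were not tested, 1 each for Srp14, Srp72, Srpr, Sec61a2, Ostc and Tusc3, were not well above background on any array.

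Related subunits of 5 pairs were compared within each array, as the log2 ratio of the brightest probe of each, which needs no scaling between arrays. Each OASIS ratio exceeded each Venus ratio in all 5 pairs. The share of other gene pairs separated in this way was not measured. The direction follows from which gene is placed on top, and the pairs were chosen with earlier results known. Relative to the Venus mean, Tram1 over Tram2 was 2.19 and 1.63 higher on the OASIS arrays and deviated by 0.10 on the Venus arrays, a difference of 1.91 (SE 0.30), a 3.76-fold shift. Sec61a1 over Sec61a2 was 1.35 and 1.16 higher, a difference of 1.26 (SE 0.11). Stt3a over Stt3b was 1.30 and 1.0 higher, a difference of 1.15 (SE 0.16). With the mean of a gene's probes and with the probe of smallest p, the difference was 1.37 and 1.81 for Sec61a1 over Sec61a2. For Stt3a over Stt3b both choices gave a larger difference, but both draw on the Stt3a probe below background with Venus. No exact value is therefore given for them.

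The remaining pairs differ in which gene moved. Tusc3 over Magt1 was 1.03 and 1.17 higher on the OASIS arrays, a difference of 1.10 (SE 0.11), with Magt1 falling and Tusc3 near 0. Sec11a over Sec11c was 0.86 and 0.43 higher, a difference of 0.65 (SE 0.22), with the least separated arrays of the 5. With 2 arrays a group, the smallest two-sided p of an exact permutation test is 0.333, which was its value for every pair before and after Benjamini-Hochberg adjustment over the 5, so that this test cannot pass a threshold of 0.05 with this number of arrays.

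**Figure D3:**
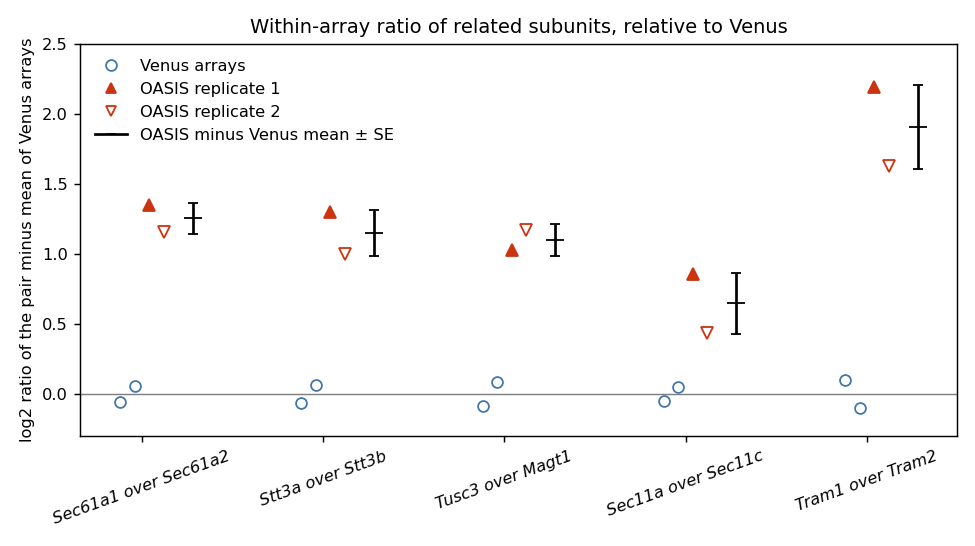
Log2 ratio of related subunits within each array, minus the mean of the Venus arrays, for 5 pairs; circles are Venus arrays, triangles OASIS arrays, and bars the difference of the group means with its SE. In all 5 pairs both OASIS arrays lie above both Venus arrays, by the most for Tram1 over Tram2 (1.91) and the least for Sec11a over Sec11c (0.65). The direction of a ratio follows from which gene is placed on top, and the share of other gene pairs so separated was not measured.

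The OASIS arrays were not alike in these genes. OASIS replicate 1 exceeded OASIS replicate 2 in 21 of the 23 genes higher by the adjusted p (91.3%), by a median of 0.20 on the log2 scale, and in 6 of the 6 genes that rose. Over all tested genes it did so in 52.6%, by a median of 0.02. Among all genes higher by the adjusted p alone it did so in 69.0%, by a median of 0.11, and among all genes that rose past the threshold in 78.0%, by a median of 0.24, so that the order of the OASIS arrays is shared with other genes that rose. Venus replicate 1 exceeded Venus replicate 2 in 13 of the 23 genes. The part of this difference between the OASIS samples in the fold changes was not tested.

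Genes of the steps before, beside and after protein entry were listed in 7 groups, 75 genes in all, of which 74 were tested. Among these, 4 rose (5.41%) and 1 fell (1.35%), beside 6.21% and 1.85% over all tested genes. By the adjusted p alone 24 were higher (32.4%) and 6 lower (8.11%), against 18.6% and 18.1% over all tested genes, and the median was 0.13. With the probe of smallest p standing for each gene 11 rose (14.9%) against 8.37% of all genes, and by the methods' t-test 1 rose. The counts of each group below are by the brightest probe. Beside them stand 6.21% of all tested genes for rises and 1.85% for falls, and 18.6% higher and 18.1% lower by the adjusted p alone. The values of the neighbouring genes beside those of the 5 roles are in the plot of fold changes by pathway.

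The glycan that OST transfers is first built on the lipid dolichol. Of 23 genes for that assembly, none rose by the brightest probe and 1 fell, and the median was 0.19. By the adjusted p alone 9 were higher and 2 lower, beside 18.6% and 18.1% of all tested genes. For Dhdds and Alg14, 1 dimmer probe each was past the threshold as higher. The fall was Alg10b, for the glucosyltransferase that adds the terminal glucose, at -1.16 (SE 0.11, limma adjusted p = 0.00736), on 1 of its 2 probes. Its value turned to 0.10 without Venus replicate 1, since the other probe was then the brighter.

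After transfer, glucosidases trim the glycan and calnexin and calreticulin bind the trimmed form. Of 10 such genes, 1 rose by the brightest probe and 3 were higher by the adjusted p alone, with a median of 0.19. Of all tested genes, 6.21% rose and 18.6% were higher. For Uggt2, 1 dimmer probe was past the threshold as higher. The rise by the brightest probe was Mogs, for glucosidase I, which removes the outermost glucose. Mogs read 3.60 and 3.45 with Venus and 5.06 and 4.89 with OASIS, a fold of 2.73 (log2 1.45, SE 0.12, limma adjusted p = 0.00629).

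Other routes into the ER membrane had medians near 0. Of 8 genes for tail-anchored protein insertion, 1 rose, beside 6.21% of all tested genes, and the median was 0.00. By the adjusted p alone 2 were higher and 1 lower, beside 18.6% and 18.1% of all tested genes. The rise was Tmem208, a membrane protein of the SRP-independent route, at 1.02 (SE 0.12, limma adjusted p = 0.00992), which lay under the fold of 2 under quantile normalization (0.98), scaling to the median (0.99), normexp correction (0.998), the mean of its probes (0.82) and without OASIS replicate 1 (0.92), and which the methods' t-test did not call. Of the 10 genes of the ER membrane protein complex, an insertase for transmembrane segments, 2 were higher and 1 lower by the adjusted p alone. These counts stand beside 18.6% and 18.1% of all tested genes. None passed the fold of 2 by the brightest probe, and the median was -0.11. For Emc3, Emc7 and Emc8, 1 dimmer probe each was past the threshold as higher. Of 5 GPI transamidase genes and 3 tested signal peptide peptidase genes, none was higher by the brightest probe and the adjusted p alone. In each group 1 was lower, and the medians were 0.00 and -0.13. For Sppl2a, 1 of its 3 probes, not the brightest, was past the threshold as higher.

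Among 15 further partners of the channel and the ribosome, 2 rose and 8 were higher by the adjusted p alone, with a median of 0.45. Of all tested genes, 6.21% rose and 18.6% were higher. Ckap4, for a protein that shapes ER sheets, read 0.21 and 0.27 with Venus and 2.77 and 2.21 with OASIS, and it rose by 2.25, a fold of 4.75 (SE 0.21, limma adjusted p = 0.00704). Rrbp1, for a ribosome-binding protein of the rough ER, read 4.0 and 4.05 with Venus and 5.52 and 5.23 with OASIS, and it rose by 1.35 on its brightest probe (SE 0.14, limma adjusted p = 0.00789), as it did on all 4 probes. Tmem258 and Ost4, small OST subunits outside the 35, gave 0.84 and 0.45 (limma adjusted p = 0.0135 and 0.0757). Hspa5, for BiP, the chaperone at the inside of the channel, gave 0.07 (limma adjusted p = 0.714).

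**Figure D4:**
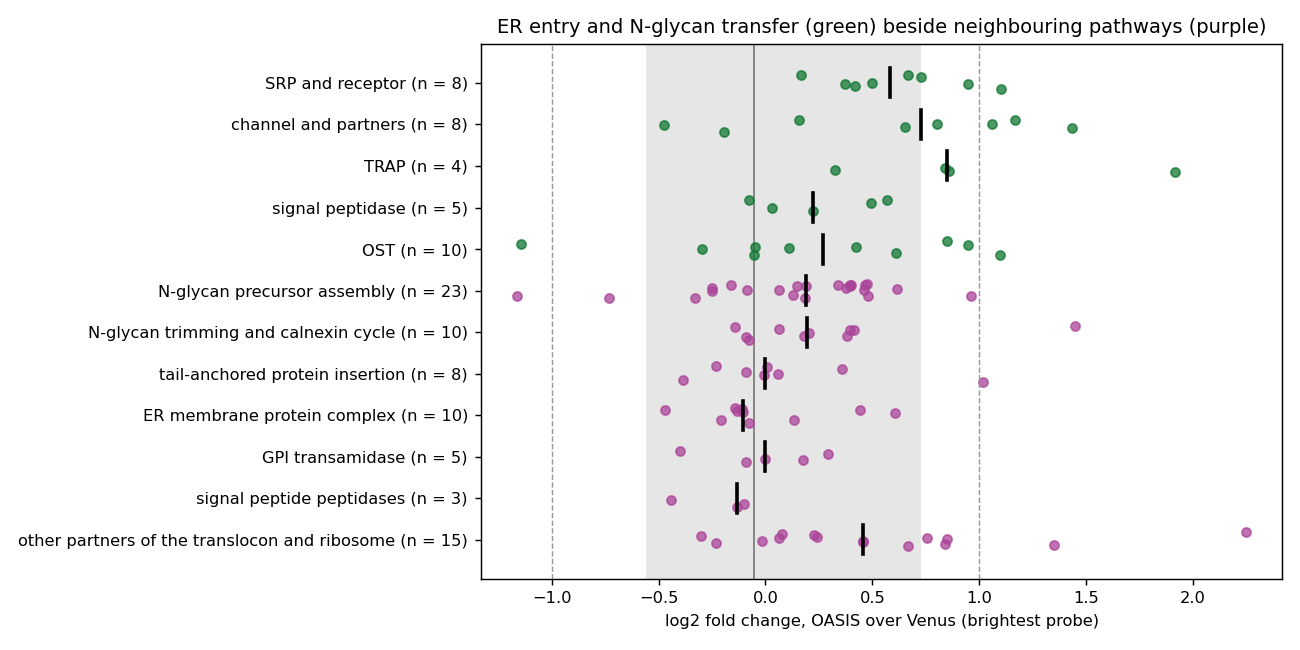
Log2 fold change, OASIS over Venus, of each gene by its brightest probe (points) for the 5 roles (green) and 7 neighbouring groups (purple), with group medians as black bars; the grey line is the median of all tested genes (-0.06), the grey band runs from their percentile 10 to their percentile 90, and dashed lines mark a fold of 2. The medians of TRAP (0.85), the channel (0.73) and SRP (0.58) lie above the highest neighbouring median (other partners, 0.45). The SRP median ranged from 0.46 without OASIS replicate 1 to 0.70 without OASIS replicate 2. Those of OST (0.27) and signal peptidase (0.22) lie near those of glycan assembly and trimming (0.19 each). The ER membrane protein complex and the signal peptide peptidases lie lower, at -0.11 and -0.13. The signal peptidase median was 0.11 without OASIS replicate 1 and 0.45 without OASIS replicate 2.

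Markers of cells next to podocytes in the kidney gave these values beside the results. Of 8 tubule genes, 4 were above background on all arrays, Umod, Slc12a1 and Slc12a3 were above it on none, and the summed intensity was 21.9 and 29.8 with Venus and 22.4 and 37.9 with OASIS. Among them Lrp2, for the endocytic receptor megalin, rose (log2 fold change 1.62, limma adjusted p = 0.0148) on 2 of its 5 probes, whereas Aqp2 was lower by the adjusted p alone (-0.39, limma adjusted p = 0.0538), Cubn gave -0.22 (limma adjusted p = 0.24), and the median of the 4 was -0.07. Most of the tubule sum came from 1 gene, Aqp1, at 20.4 and 27.9 with Venus and 18.9 and 33.9 with OASIS. Of 4 endothelial genes, Kdr, Cdh5 and Emcn were above background on no array, and Pecam1, on all, gave 0.26 (limma adjusted p = 0.161), with both OASIS arrays above both Venus arrays. The endothelial sum was 0.0412 and 0.0329 with Venus and 0.0446 and 0.0430 with OASIS. Of 3 mesangial genes 2 were above it on all arrays, with a sum of 3.83 and 4.56 with Venus and 3.02 and 3.77 with OASIS, of which Gata3 was lower by the adjusted p alone (-0.82, limma adjusted p = 0.0264) and Pdgfrb gave -0.10 (limma adjusted p = 0.716). The 3 leukocyte genes had sums of 3.02 and 2.81 with Venus and 2.67 and 2.99 with OASIS. Ptprc counts among them by 1 of its 7 probes, while 5 were above background on no array. The part of these markers in the results was not tested beyond these values.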

How the data were processed

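RNA of 2 Venus and 2 OASIS samples was hybridised to Agilent SurePrint G3 Mouse arrays. The deposited scanner files hold the spot intensity as corrected for background by Agilent Feature Extraction 12.1.0.3 for the authors, and flag spots that were outliers, saturated or clearly above background. A further table deposited by the authors holds scaled intensity, equal to the corrected intensity times 1 factor per array (0.663 to 0.698), with a detection score per spot, gene symbols and bands. How the factor per array was set is not given in the sources used here.

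Control and outlier spots were left out, log2 intensities were taken relative to each array's 75th percentile, and repeated spots were averaged by probe. A probe (56605 in all) was tested when at least 0.5 of its spots were well above background on both arrays of a group, which left 31598 probes for 16318 genes, each represented by its brightest probe. The package limma 3.58.1 (R 4.3.3; files read with data.table, version 1.17.8) fitted OASIS minus Venus (lmFit, eBayes), with Benjamini-Hochberg adjustment of p over the tested probes. Calls followed the limits in the study's methods, with a fold above 2 or below 0.5 and an adjusted p below 0.1. A probe not above background in 1 group got a bound against the dimmest probe above background on those arrays. The fit was tested on simulated arrays.

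The 35 members, the neighbouring lists, the markers and the pairs were chosen with earlier results of these data known. All members are named, and of the other lists the genes past the threshold and the defining podocyte markers. Creb3l1, Srp54b, Srp54c, Tmem258, Ost4, Hspa5, Ptpro, Tcf21, Magi2 and the other kidney markers without a call were added after their values were seen. So were Dhdds, Alg14, Uggt2, Emc3, Emc7, Emc8 and Sppl2a, each for a dimmer probe past the threshold. All 35 matched RefSeq by gene ID and symbol. Hm13 was not matched by symbol. The value of 1 gene that this rule names is not reported here. Sequences and promoter motifs were not analysed here. The number of arrays limits the precision, and the adjusted p-values rest on a spread pooled over probes. The alternatives were another normalization (quantile, median), normexp correction of the background (offset 50), values as scaled by the authors, other filters and ways to represent a gene, the methods' t-test, an intensity trend, an adjusted p under 0.05, a replicate block and leaving out each array.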

Additional observations from a re-analysis of the deposited data

How the results depend on the processing

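The 6 genes that rose and Magt1 were all called under the alternatives on all arrays other than the mean of a gene's probes and the methods' t-test. With the mean of probes Sec61a1 (0.95) was lost and Srp54a (1.78) and Stt3a (1.17) were gained, and the probe with the smallest p added Sec63, Srp54a and Stt3a. Both gains of Stt3a rest on the probe below background with Venus. The t-test left 400 genes, 334 higher and 66 lower, 1 and 0 of the 35 genes, 4 higher by the adjusted p alone, 3 and 0 of their probes and 1 neighbouring gene, with adjusted p from 0.100 to 0.114 for the members past the fold of 2 that it lost and up to 0.252 for those higher by the adjusted p alone; the cause was not tested. Normexp background correction gave 789 genes, 652 higher and 137 lower. The probe with the smallest p gave 553 genes lower, 11 neighbouring genes higher and a member median of 0.57. The count of members lower by the adjusted p alone was 4, and of neighbouring genes that fell 0, with the mean of probes, and 1 member was lower with no filter on dim probes and with an adjusted p under 0.05. Values that changed sign were Spcs3 (-0.012, quantile normalization) and the Srp72 probe A_66_P107579 (0.032, normexp correction).

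Leaving out each array in turn gave 1267 to 1718 genes in all, 988 to 1244 higher and 279 to 474 lower, 4 to 8 members higher and 1 lower, 10 to 22 and 1 to 2 members by the adjusted p alone, 9 to 19 member probes higher, the 19 without OASIS replicate 2, and a member median of 0.44 to 0.55. The neighbouring genes gave 3 to 6 higher and 0 to 1 lower. Values that changed sign ranged from -1.24 to 0.10 for Alg10b, -0.050 to 0.11 for Spcs3, -0.0072 to 0.45 for Spcs2, -0.19 to 0.028 for Sec11c, -0.14 to 0.58 for the Dad1 probe A_66_P140888, -0.046 to 0.25 for the Rpn2 probe A_55_P2719176 and -0.34 to 0.088 for the Ssr3 probe A_52_P312398. The replicate block gave 1345 genes and 6 members higher and 1 lower; same-numbered arrays correlated at 0.26 in their deviations over 2 pairs, which does not show that the numbers pair samples. A slide block was not fitted, since there is 1 slide, and the promoter motif alternative was not run. Dim probes and 2 arrays a group limit the single values.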
